A study of Capra hircus with 8 samples.

Results

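Interferon response genes are the genes that cells switch on after an interferon signal, and here they were followed in goat skin. A list of 40 such genes was matched by symbol to the 18815 genes of the first deposited count table, which held 33 of them. The filter on low counts passed 32 of the 33, all but CXCL11, among 14085 genes tested in all. IFIT1, USP18, GBP2, GBP4, GBP5, OAS1 and OAS2 had no entry under these symbols in that table. The skin came from cashmere goats and from milk goats at months 3, 6, 9 and 12, and each of the 8 combinations is 1 RNA sequencing library of polyadenylated RNA from TRIzol extracts. The study's title is about the seasonal hair follicle cycle in these breeds. The labels enter the month as an age, the design text speaks of months, and the extraction protocol mentions embryos although the tissue is skin, so the sources used here do not settle which kind of month is meant. They do not say whether a library holds 1 animal or a pool. The p-values measure only the spread between these libraries. Within it, technical, animal and month-specific differences cannot be told apart. No other treatment or genotype is given.

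Interferons are secreted signalling proteins. Type I interferons bind the receptor chains IFNAR1 and IFNAR2, and interferon gamma binds IFNGR1 and IFNGR2. JAK kinases on these receptors phosphorylate transcription factors. STAT2 and IRF9 act in a complex that switches on antiviral genes such as MX1 and the IFIT genes, while interferon gamma switches on IRF1, the immunoproteasome and the chemokines CXCL9, CXCL10 and CXCL11. In skin, keratinocytes, fibroblasts and resident immune cells all respond to interferons, and the growing hair follicle is known for keeping antigen presentation low.

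Library totals were 7480053 to 8718429 reads in cashmere goats and 11333734 to 13899750 in milk goats, so depth and breed cannot be told apart. Levels are given as CPM, reads per 1000000 after scaling of the libraries by TMM, a method that corrects for a few very abundant genes. A count of 3 reads stood for 0.231 to 0.395 CPM, the limit that a count of 0 allows. Such floors and the exact intervals of read shares cover counting error only. The milk goat library of month 9 stood apart: trichohyalin (TCHH), a structural protein of the hair follicle's inner root sheath, took 12.96% of its reads against 0.243% to 6.64% in the other 7 libraries, and its TMM factor was 0.783 against 0.989 to 1.13. Skin markers matched the label, with 11 epidermal keratinocyte markers tested that summed to 33355 to 62985 CPM.

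The interferon response genes took a small share of the reads, and that share was lowest in the milk goat library of month 9. The 33 genes held 0.0871% of reads in milk goats at month 3, 0.0691% at month 6, 0.0406% at month 9 and 0.0746% at month 12. The exact (Clopper-Pearson) 95% interval of the month 9 share was 0.0396% to 0.0417%. In cashmere goats the shares were 0.0632%, 0.0570%, 0.0696% and 0.0480% in the same order of months. In CPM, which allows for the trichohyalin reads, the sums were 803, 682, 518 and 754 in milk goats and 559, 559, 694 and 473 in cashmere goats. The milk goat sums therefore lay above the cashmere goat sums at months 3, 6 and 12 and below at month 9.

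**Figure D1:**
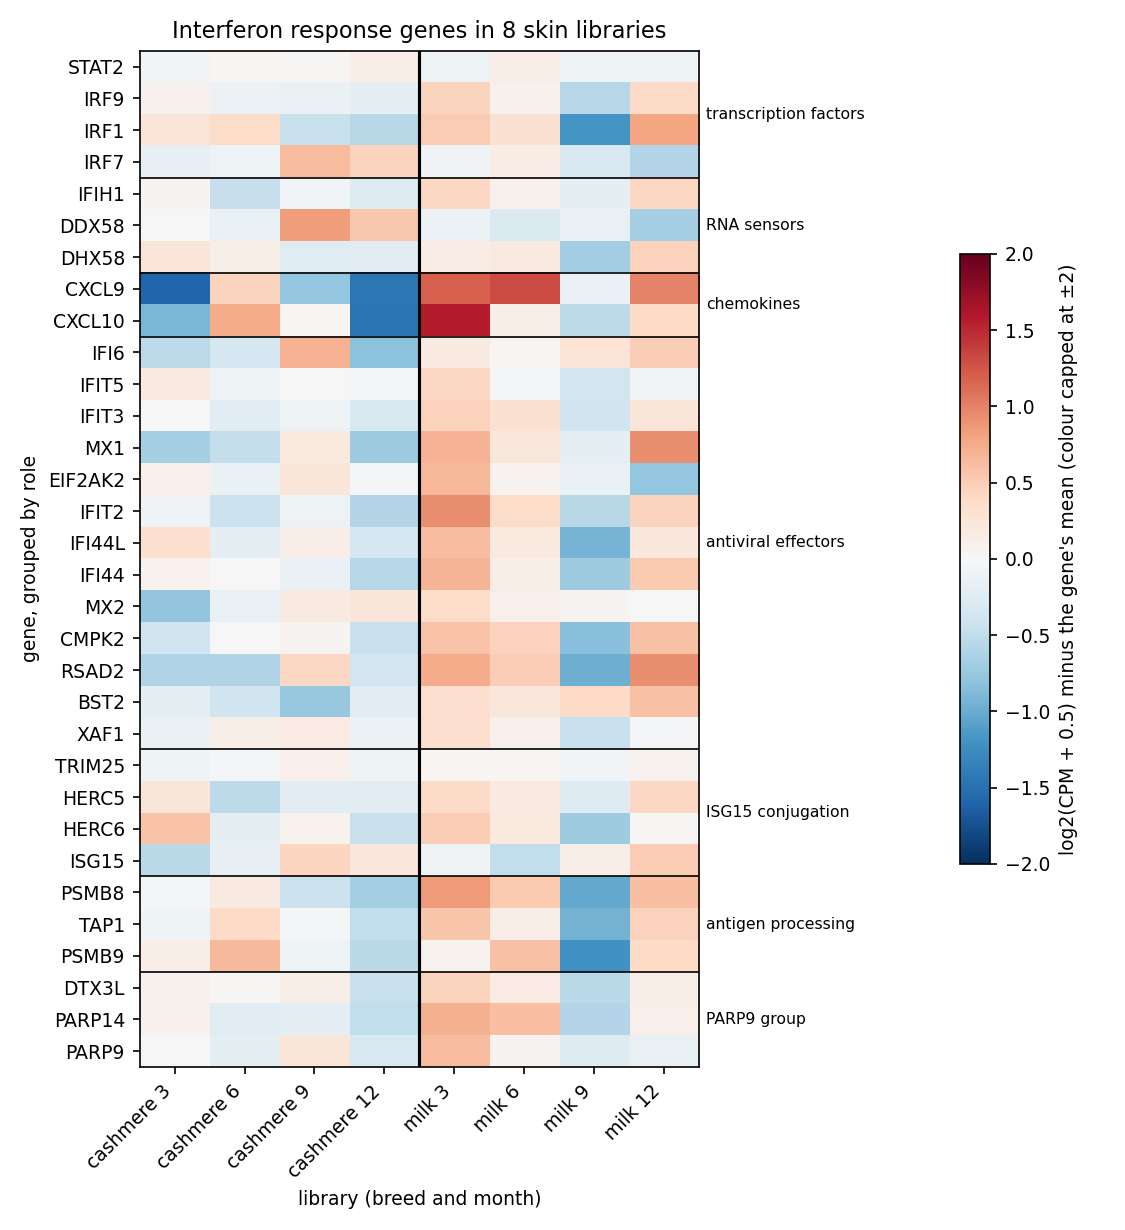
Level of 32 interferon response genes (lines, grouped by role) in the 8 libraries (columns), coloured by log2(CPM + 0.5) minus the gene's mean over the libraries and capped at 2 either way. The milk goat column of month 9 is blue for most genes, and 16 of the 32 had their lowest level there.

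The genes differed widely in level. Per unit of length, IFI6, a small mitochondrial protein that protects cells from apoptosis, was the most abundant of the 33, with 55.2 to 164 FPKM over the 8 libraries. PSMB8, a catalytic subunit of the immunoproteasome, followed with 5.67 to 27.7 FPKM, a range that did not overlap that of IFI6. Mean FPKM of the other 31 genes was at most 7.69 (IFIT3), and the lowest, for CXCL11, was 0.110. Read counts of the lowest genes were small: CXCL11 had at most 15 reads and CXCL10 at most 44 in a library, so their ratios are imprecise.

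Taking the 4 months together, no interferon response gene differed between breeds past the threshold. The edgeR quasi-likelihood test of breed, with month in the model and Benjamini-Hochberg adjustment over all genes tested, called 0 of the 32 lower and 0 higher in cashmere goats at an adjusted p of 0.05. Among all genes tested it called 3.32% lower and 1.47% higher. At an unadjusted p under 0.05, 3 of the 32 were lower (13.9% of all genes) and 1 was higher (12.9% of all genes). DESeq2 called 1 of the 32, CXCL9, and 1712 of all 14085 genes. CXCL9 also had the smallest p of the 32 in edgeR. Fold changes of the 32 had a median of -0.20 on the log2 scale against 0.028 for all genes, and 25 of the 32 were negative against 47.2% of all genes. This count was 19 with library totals alone and 16 in limma on log2(FPKM + 1), a fit that differs in unit, filter, test and scaling. Library totals also moved the median log2 fold change of all genes from 0.028 to 0.14, and the split of calls over all genes from 468 lower and 207 higher to 317 lower and 302 higher. Relative to all genes, the members' median was -0.22 with TMM and -0.23 with library totals.

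**Figure D2:**
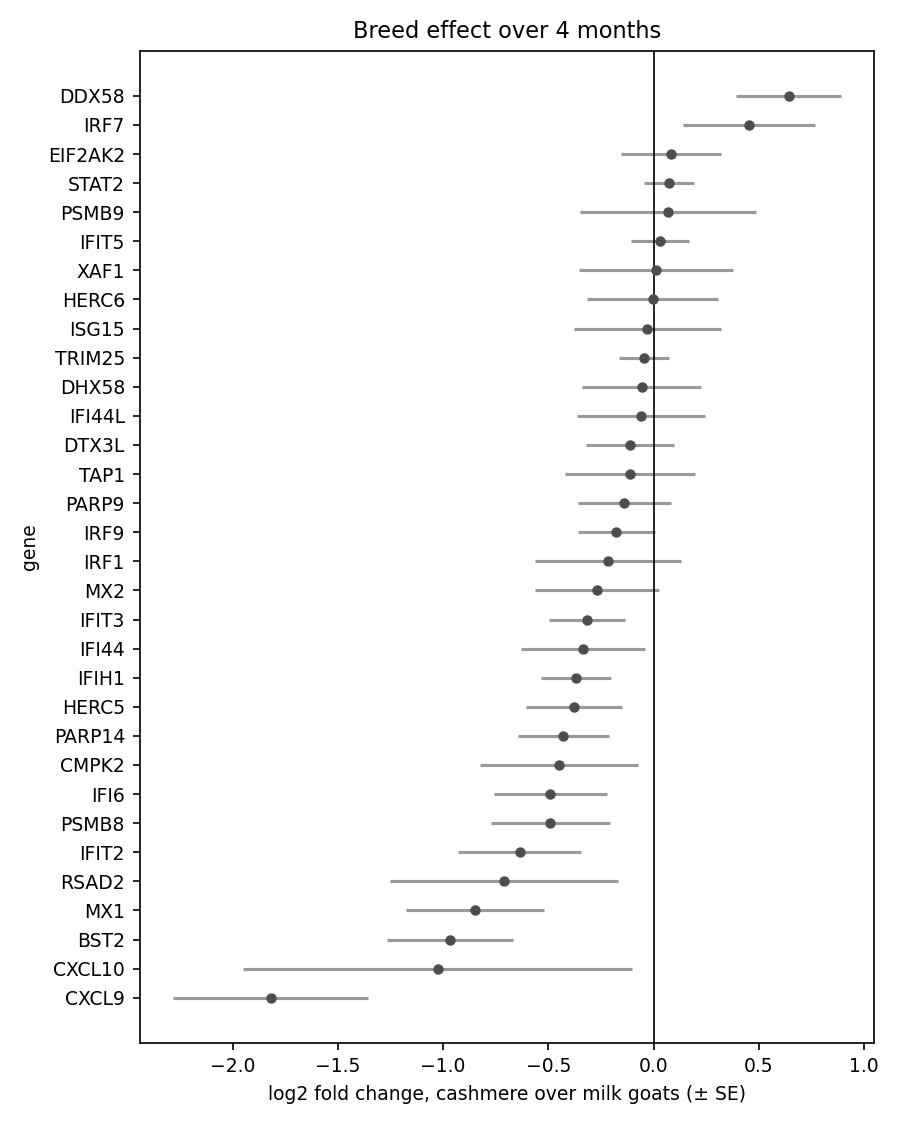
Log2 fold change of cashmere over milk goats (x axis) with its standard error for 32 interferon response genes (y axis), from the edgeR fit with month in the model. Estimates run from -1.82 for CXCL9 to 0.64 for DDX58, and none passed the adjusted threshold.

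The chemokines CXCL9, CXCL10 and CXCL11 draw activated T cells and NK cells into tissue through the receptor CXCR3. CXCL9 stood at 10.0, 10.8, 3.67 and 8.62 CPM in milk goats at months 3, 6, 9 and 12, and at 1.03, 5.77, 2.17 and 1.18 CPM in cashmere goats. The breeds overlapped, since cashmere goats at month 6 exceeded milk goats at month 9, but cashmere goats were lower in 4 of 4 months. Means were 8.27 ± 3.19 CPM in milk goats and 2.54 ± 2.21 in cashmere goats (SD, n = 4 each), a log2 fold change of -1.82 ± 0.46 (SE) with an adjusted p of 0.0675 in edgeR. With no filter on low counts the adjusted p was 0.0463, in DESeq2 it was 0.00195, and in limma on log2(FPKM + 1) it was 0.0403. It was 0.0548 in limma on log2(FPKM + 0.1), 0.1003 in limma on log2(FPKM + 1) with no filter, 0.117 in edgeR without month and 0.0902 to 0.188 in edgeR with 1 library left out. CXCL9 is thus called or not depending on the method, with a lower level in cashmere goats in each of these fits. CXCL10 had 44, 13, 5 and 15 reads in milk goats and 2, 15, 8 and 0 in cashmere goats in the same order. The 0 at month 12 allows up to 0.395 CPM, against 1.32 CPM in the milk goat library of that month. In the second count table CXCL10 had 75, 31, 31 and 33 reads in milk goats and 2, 15, 6 and 1 in cashmere goats. There it was lower in cashmere goats in 4 of 4 months, without overlap in CPM. Its log2 fold change in that table was -2.32, with an adjusted p of 0.0844 in edgeR. CXCL11 had 15, 3, 1 and 1 reads in milk goats, and 1 read, at month 6, in the 4 cashmere goat libraries.

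BST2, or tetherin, holds budding viruses at the cell surface. Its levels were 2.52, 2.31, 2.66 and 3.08 CPM in milk goats and 1.60, 1.32, 0.915 and 1.58 in cashmere goats. These rest on few reads, 29 to 35 a library in milk goats and 8 to 14 in cashmere goats. The second count table has no entry for BST2. It was the only 1 of the 32 genes whose breeds did not overlap, with cashmere goats lower, against 8.02% of all genes, and 0 of the 32 were without overlap and higher, against 6.46%. Its log2 fold change was -0.97 ± 0.30 (SE), with an adjusted p of 0.1003 in edgeR. MX1, a GTPase that traps viral particles, had 34.5, 24.7, 18.3 and 40.5 CPM in milk goats and 13.2, 15.0, 24.0 and 12.6 in cashmere goats. MX1 was lower in cashmere goats in 3 of 4 months, and the month 9 libraries had the opposite order. Its log2 fold change was -0.85 ± 0.33, with an adjusted p of 0.155 in edgeR. DDX58, which encodes the viral RNA sensor RIG-I, went the other way. It had 9.72, 8.78, 17.9 and 14.5 CPM in cashmere goats and 8.95, 7.92, 8.82 and 5.98 in milk goats, higher in cashmere goats in 4 of 4 months though by little at months 3 and 6. Its log2 fold change was 0.64 ± 0.25, with an adjusted p of 0.157 in edgeR.

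Month, tested over both breeds together, called 0 of the 32 genes and 0% of all genes in edgeR, and 0 of the 32 had an unadjusted p under 0.05 against 13.4% of all genes. DESeq2 called 536 genes for month and 0 of the members. A breed difference that follows a 12-month cycle, which reads the months as a season, was tested with sine and cosine terms. That edgeR test called 0 of the 32 and 0% of all genes. At an unadjusted p under 0.05 it had 4 of the 32, against 6.42% of all genes. The adjusted p of these 4 in edgeR were 0.434 for CXCL10, 0.586 for MX1, 0.620 for the peptide transporter gene TAP1 and 0.725 for CXCL9. No other tool was run for this test.

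Within single months most members lay on the same side, and the direction at month 9 was the opposite of that at the other 3 months. These are ratios of 1 library to 1 library, with no replicate check and no test. At month 3 the median log2 ratio of the members was -0.57, against 0.022 for all genes, and 27 of 32 stood lower in cashmere goats. At month 6 the median was -0.25 against 0.0037, and 25 of 32 stood lower. At month 12 it was -0.64 against -0.020, and 26 of 32 stood lower. At month 9, 30 of 32 were higher in cashmere goats, and the median was 0.49 against 0.062 for all genes. Of all genes, 47.8%, 49.6%, 45.3% and 51.1% were lower in cashmere goats at months 3, 6, 9 and 12. The month 9 ratios share the milk goat library that stands apart, and the sum of the members was also highest among cashmere goats in that month, though IFI6 makes up most of that excess. Without IFI6 the cashmere goat sums were 464, 450, 473 and 396 CPM at months 3, 6, 9 and 12, and the milk goat sums 649, 542, 353 and 561.

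**Figure D3:**
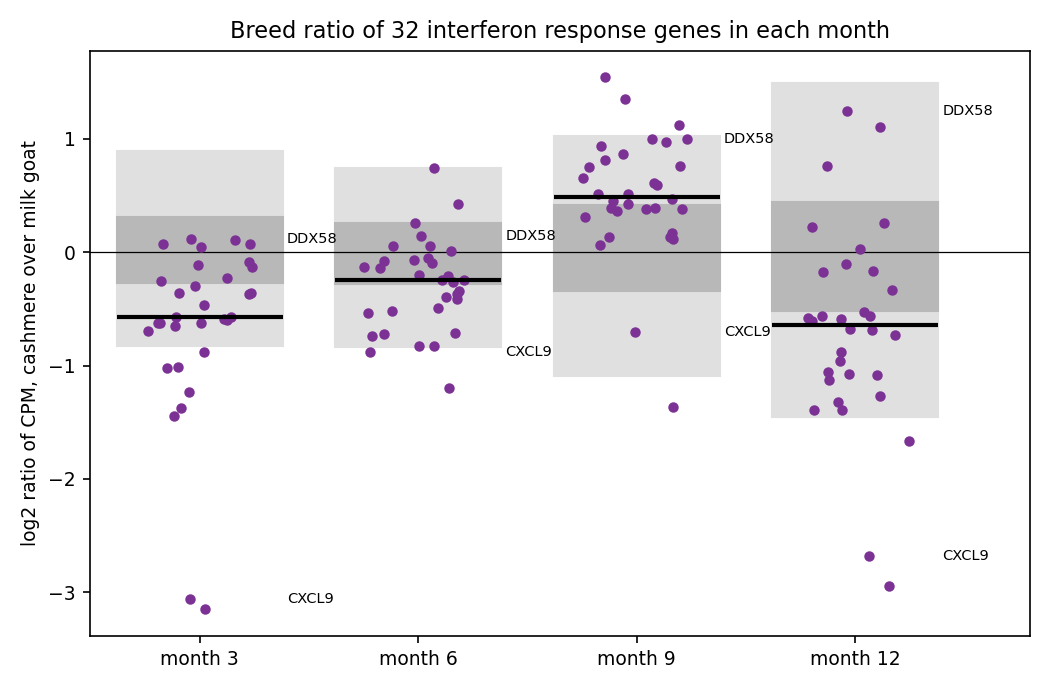
Log2 ratio of CPM in cashmere over milk goats for 32 interferon response genes (points) in each month, with their median (bar) and the middle 50% and 90% of all genes tested (dark and light grey). Medians are -0.57, -0.25, 0.49 and -0.64 at months 3, 6, 9 and 12.

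Past a 2-fold ratio at month 3 were 7 of the 32 genes lower in cashmere goats (3.08% of all genes) and 0 higher (3.88%). The 7 were CXCL9, CXCL10, MX1, its relative MX2, the antiviral genes IFIT2 and RSAD2, and CMPK2, a nucleotide kinase. At month 6, 1 gene was lower, RSAD2 (2.91% of all genes), and 0 were higher (2.32%). At month 9, 1 gene was lower, BST2 (6.06% of all genes), and 4 were higher (5.29%): RSAD2, the immunoproteasome subunit PSMB9, IFI44L and DDX58. At month 12, 11 were lower (10.9% of all genes) and 2 higher (9.68%). The 11 were CXCL9, CXCL10, MX1, IFI6, IFI44, IFIT2, RSAD2, CMPK2, IRF1, PSMB8 and PSMB9, and the 2 were DDX58 and IRF7, a factor that drives type I interferon genes. At months 3 and 12 the shares of the 32 that were 2-fold lower thus stood above those of all genes. So did the share that was 2-fold higher at month 9.

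**Figure D4:**
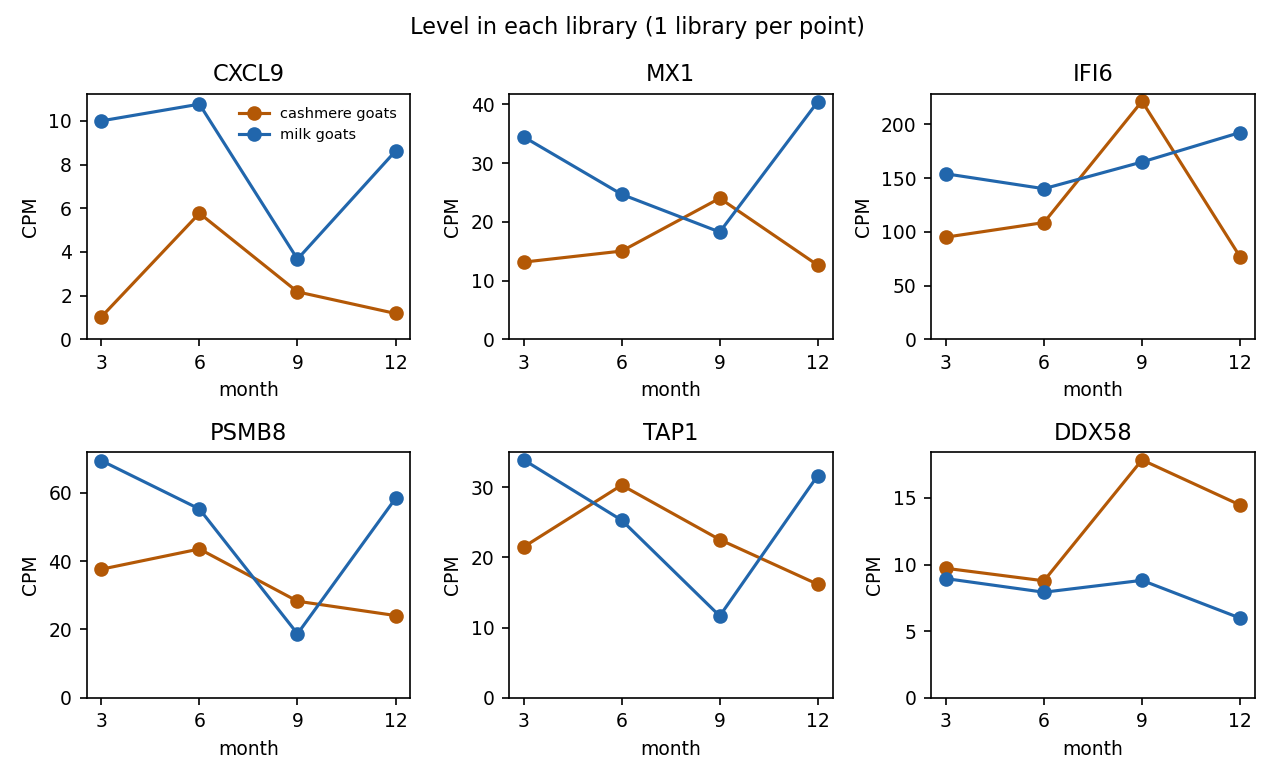
CPM by month (x axis) in cashmere goats and milk goats for 6 interferon response genes, 1 library per point. In milk goats CXCL9, MX1, PSMB8 and TAP1 are lowest at month 9, while in cashmere goats IFI6 stands at 221 CPM and MX1 at 24.0 CPM in that month, their highest.

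The low values in milk goats at month 9 ran across roles. Against the mean of the other 3 milk goat libraries, 28 of the 32 genes were lower, as were 7286 of all 14085, with a median log2 difference of -0.81 against -0.022 for all genes. Past 2-fold were 14 of the 32, against 7.26% of all genes, and on log2(FPKM + 1), where low values differ less, 5. The milk goat minimum was at month 9 for 24 of the 32 (34.0% of all genes), and the minimum of all 8 libraries for 16 (19.4% of all genes). With library totals in place of TMM the median of all genes moved to -0.41, and the members lay 0.79 below all genes under both scalings. The 4 genes not lower were DDX58, IFI6, BST2 and ISG15, at 0.22, 0.038, 0.023 and 0.18 on the log2 scale.

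Among the roles, the 3 genes of antigen processing had the lowest median difference at month 9 in milk goats. PSMB8 stood at 69.4, 55.2, 18.7 and 58.3 CPM in milk goats and 37.6, 43.5, 28.3 and 24.1 in cashmere goats. Its log2 fold change between breeds was -0.49 ± 0.28 (SE), with an adjusted p of 0.301 in edgeR. PSMB9 stood at 2.28, 3.46, 0.643 and 2.99 CPM in milk goats and 2.40, 3.61, 1.95 and 1.32 in cashmere goats. TAP1, which carries peptides into the endoplasmic reticulum, had 33.9, 25.3, 11.7 and 31.7 CPM in milk goats and 21.5, 30.3, 22.5 and 16.2 in cashmere goats. Each of the 3 had its lowest level of all 8 libraries in milk goats at month 9, and within cashmere goats its lowest at month 12. Their median log2 difference at month 9 in milk goats was -1.69, though PSMB9 had only 7 reads there. Of single genes in other roles, RSAD2 (-1.86) and IRF1 (-1.83) fell further than PSMB8 (-1.69) and TAP1 (-1.35). A separate list of 13 antigen presentation genes had a median of -0.78. Its sum was nevertheless highest in that library, at 3724 CPM against 2918 to 3083 in the other milk goat libraries.

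Among the transcription factors, IRF1 varied most. It had 10.4, 9.00, 2.85 and 12.8 CPM in milk goats and 8.69, 9.38, 5.15 and 4.74 in cashmere goats, so both breeds stood lower at month 9 than at months 3 and 6, and cashmere goats stayed low at month 12. IRF9, the DNA-binding partner of STAT2, stood at 18.1 CPM in milk goats at month 9 and at 24.1 to 37.3 in the other 7 libraries. STAT2 was among the steadiest of the members, between 40.6 and 47.9 CPM, but ran from 18.0 to 34.4 CPM in the second count table. IRF7 followed another course, at 7.90 and 6.84 CPM in cashmere goats at months 9 and 12 and 3.08 to 5.46 in the other 6 libraries. Of the other RNA sensors, IFIH1 (MDA5) lay between 20.1 and 37.2 CPM and DHX58 (LGP2), which regulates the other sensors, between 2.11 and 5.37, lowest in milk goats at month 9.

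Among the antiviral effectors, RSAD2 (viperin), which makes a nucleotide that ends viral RNA chains, had 6.26, 5.23, 1.56 and 7.22 CPM in milk goats. In cashmere goats it had 2.17, 2.16, 4.92 and 2.63, highest in the month in which milk goats were lowest. IFI44L had 12.5, 9.23, 3.95 and 9.33 CPM in milk goats and 10.2, 6.98, 8.81 and 6.18 in cashmere goats. IFIT2, which binds foreign RNA, had 15.5, 10.4, 5.23 and 10.9 CPM in milk goats and 7.55, 5.77, 7.32 and 5.13 in cashmere goats. These 3 genes had their milk goat minimum at month 9 and were not at their minimum in cashmere goats then. IFI6 had 154, 140, 165 and 192 CPM in milk goats and 95.0, 109, 221 and 76.8 in cashmere goats, where month 9 exceeded every milk goat library. Its breed log2 fold change was -0.49 ± 0.27 (SE), with an adjusted p of 0.278 in edgeR. In the other effectors the range over the 8 libraries was 20.8 to 38.1 CPM for IFIT3, 29.2 to 50.5 for IFIT5, 4.59 to 12.8 for IFI44, 2.48 to 7.48 for CMPK2, 3.20 to 7.81 for MX2, 9.24 to 25.9 for the kinase EIF2AK2 (PKR) and 0.735 to 1.63 for XAF1.

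In cashmere goats month 9 was no low point. There 23 of the 32 genes, and 7484 of all 14085, were above the mean of the other 3 cashmere goat libraries, with a median log2 difference of 0.17 against 0.025 for all genes. The differences were 1.26 for IFI6, 1.03 for RSAD2, 1.01 for CXCL10, 0.82 for MX1, 0.72 for DDX58 and 0.70 for ISG15. They were -0.49 for IRF1, -0.27 for PSMB8, -0.20 for PSMB9, 0.039 for TAP1 and -0.61 for BST2.

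ISG15 is a ubiquitin-like protein that interferon-treated cells attach to other proteins. It had 1.30, 0.846, 1.56 and 2.20 CPM in milk goats and 0.801, 1.20, 2.06 and 1.71 in cashmere goats, from 7 to 25 reads a library. The ligases HERC5 and HERC6 had 4.21 to 8.54 and 2.11 to 5.83 CPM. In the second count table they stood higher, at 45.6 to 89.1 and 8.96 to 20.3 CPM. TRIM25, which also acts as a ligase for RIG-I, lay between 50.5 and 58.0 CPM. In the second count table it was less steady, at 11.5 to 22.5 CPM. PARP9, its partner DTX3L and PARP14 modify proteins with ADP-ribose or ubiquitin. PARP14 had 37.3, 34.5, 15.0 and 24.3 CPM in milk goats and 24.1, 19.4, 19.7 and 15.9 in cashmere goats. DTX3L had 22.8 to 45.4 CPM and PARP9 8.55 to 16.8, both highest in milk goats at month 3.

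Over the 8 libraries most of the 32 genes followed a shared course. The Pearson correlation of each gene's log2 CPM with the mean of the other members ran from -0.32 to 0.95 with a median of 0.75, above 0.5 for 24 genes and negative for 4 (DDX58, STAT2, IRF7 and ISG15). These are descriptions over 8 libraries that share breed, month and depth. Averaged over the standardised members, milk goats stood at 0.96, 0.43, -1.002 and 0.48 and cashmere goats at -0.21, -0.22, 0.16 and -0.60 at months 3, 6, 9 and 12. The genes outside the list with the highest correlation to this mean were ERAP2, a peptidase that trims antigenic peptides (0.98), MLKL, the executor of necroptosis (0.96), the membrane transporter ABCG2 (0.96), TDRD7 (0.96), CDH13, a cadherin of vessels (0.95), MBNL2 (0.95), GNAI1 (0.95), IFNGR1 (0.94), PREX1 (0.94) and SH3D19 (0.94). Each of these 10 was lowest in milk goats at month 9, as was the mean they were chosen to resemble, so this follows largely from the choice.

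Many members are neighbours in the genome. In the RefSeq annotation of the goat assembly ARS1.2, in which all 33 were found by symbol, 19 stand directly beside another member, in 8 runs. Neighbours correlated at 0.98 for IFIT3 and IFIT2, 0.92 for RSAD2 and CMPK2, 0.88 for IFI44L and IFI44, 0.83 for CXCL9 and CXCL10, 0.82 to 0.93 among PSMB9, TAP1 and PSMB8, 0.74 to 0.87 among PARP9, DTX3L and PARP14, 0.70 for HERC5 and HERC6 and 0.47 for MX2 and MX1. Correlations of members that are not neighbours are not given here, and most members share a course. An effect of adjacency therefore cannot be read from these values. Some of the neighbours are related in sequence, and how reads that fit both were counted is not given in the sources used here. A share of their reads may thus be split between them.

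Other genes of the interferon pathway were taken from 5 lists, whose counts stand against 3.32% of all genes called lower and 1.47% called higher in cashmere goats. Of 13 listed ligands and receptors 8 were in the table, and the ligands IFNE and IFNK had at most 2 reads in a library. Of the 5 tested, 1 fell in cashmere goats: IFNAR2, a chain of the type I receptor. It had 58.6, 48.5, 43.9 and 73.0 CPM in milk goats and 41.5, 35.6, 23.1 and 30.8 in cashmere goats, with no overlap. Its log2 fold change was -0.78 ± 0.16 (SE), with an adjusted p of 0.0469 in edgeR, but -0.24 with an adjusted p of 0.391 in the second count table. Of the 12 signal transducers and their brakes, 0 were called, and edgeR gave unadjusted p under 0.05 for 3 of them, against 13.9% of all genes lower and 12.9% higher. The repressor IRF2 and PIAS1 had log2 fold changes of -0.50 and -0.35, with adjusted p in edgeR of 0.120 and 0.152. Of the 14 genes of nucleic acid sensing tested, 0 were called, and the smallest p belonged to ZBP1 (0.95, adjusted p 0.177) and TMEM173, or STING (-0.58, adjusted p 0.184), which had the opposite sign in the second count table.

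Of 13 genes of antigen presentation tested, 2 fell in cashmere goats and 0 rose, against 3.32% and 1.47% of all genes. PSME1, a subunit of the proteasome activator PA28, had 223, 194, 306 and 249 CPM in milk goats and 114, 125, 115 and 147 in cashmere goats. The breeds did not overlap, and unlike the immunoproteasome subunits PSME1 was not low in milk goats at month 9. Its log2 fold change was -0.94 ± 0.17 (SE), with an adjusted p of 0.0356 in edgeR. PSMB10, the remaining inducible catalytic subunit, had a log2 fold change of -1.20 ± 0.26 with an adjusted p of 0.04996, which lay above the threshold with library totals (0.0596) and in the second count table (0.0518). Of 25 other interferon-induced genes tested, 2 fell and 0 rose. IFI35 had 29.8, 33.6, 21.4 and 49.5 CPM in milk goats and 18.3, 19.6, 11.7 and 16.6 in cashmere goats, with a log2 fold change of -0.98 ± 0.18 and an adjusted p of 0.0363, which was 0.0506 with library totals and 0.0590 in the second count table. EPSTI1 had 8.46, 9.46, 9.28 and 13.3 CPM in milk goats and 3.20, 5.65, 4.35 and 3.55 in cashmere goats, with a log2 fold change of -1.27 ± 0.24 and an adjusted p of 0.0381, which was 0.0512 with library totals. Neither gene overlapped between breeds. The calls of these 5 genes are fragile. Leaving out any 1 library of month 3, 6 or 9 raised their adjusted p in edgeR to between 0.101 and 0.138. Their log2 fold changes stayed negative. Such a fit takes the whole month out of the breed comparison and leaves fewer residual degrees of freedom. The rise therefore does not show that the calls hang on a single library.

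Markers of several cell types moved with the members at month 9 in milk goats. In bulk skin, fewer cells of a type and less RNA per cell cannot be told apart. Against the other 3 milk goat libraries, the median log2 difference was -1.33 over 12 T cell markers tested, -1.30 over 10 macrophage markers, -1.30 over 5 mast cell markers, -1.20 over 11 endothelial markers and -0.95 over 7 dendritic cell markers. It was -0.59 over 3 B and plasma cell markers, -0.48 over 9 dermal fibroblast markers, -0.056 over 3 neutrophil markers, 0.34 over 11 epidermal markers and 2.31 over 10 hair follicle markers. Macrophage markers in the table, 13 of 15 listed, summed to 79.8 to 229 CPM in milk goats, lowest at month 9, and to 97.9 to 141 in cashmere goats. T cell markers, 14 of 15 listed, summed to 31.8 to 57.8 CPM in milk goats, lowest at month 9, and to 37.5 to 46.0 in cashmere goats. Hair follicle markers summed to 174677 CPM in milk goats at month 9, 3014 to 63338 in the other milk goat libraries and 22656 to 74496 in cashmere goats. None of the 8 cytotoxic and NK cell markers in the table passed the filter, and GZMA had 1 read in 1 library and 0 in the other 7. Of the macrophage markers, AIF1 alone fell in cashmere goats, by 1.08 ± 0.24 (SE) on the log2 scale with an adjusted p of 0.0492 in edgeR, and with any 1 library left out that p was 0.0588 to 0.174. The summed macrophage markers were higher in milk than in cashmere goats at months 3, 6 and 12 and lower at month 9, as were the summed members. The same order held for the summed markers of T cells, cytotoxic and NK cells, B and plasma cells and endothelium. It did not hold for the sums of the other marker lists. The part of these markers in the members' levels was not tested.

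**Figure D5:**
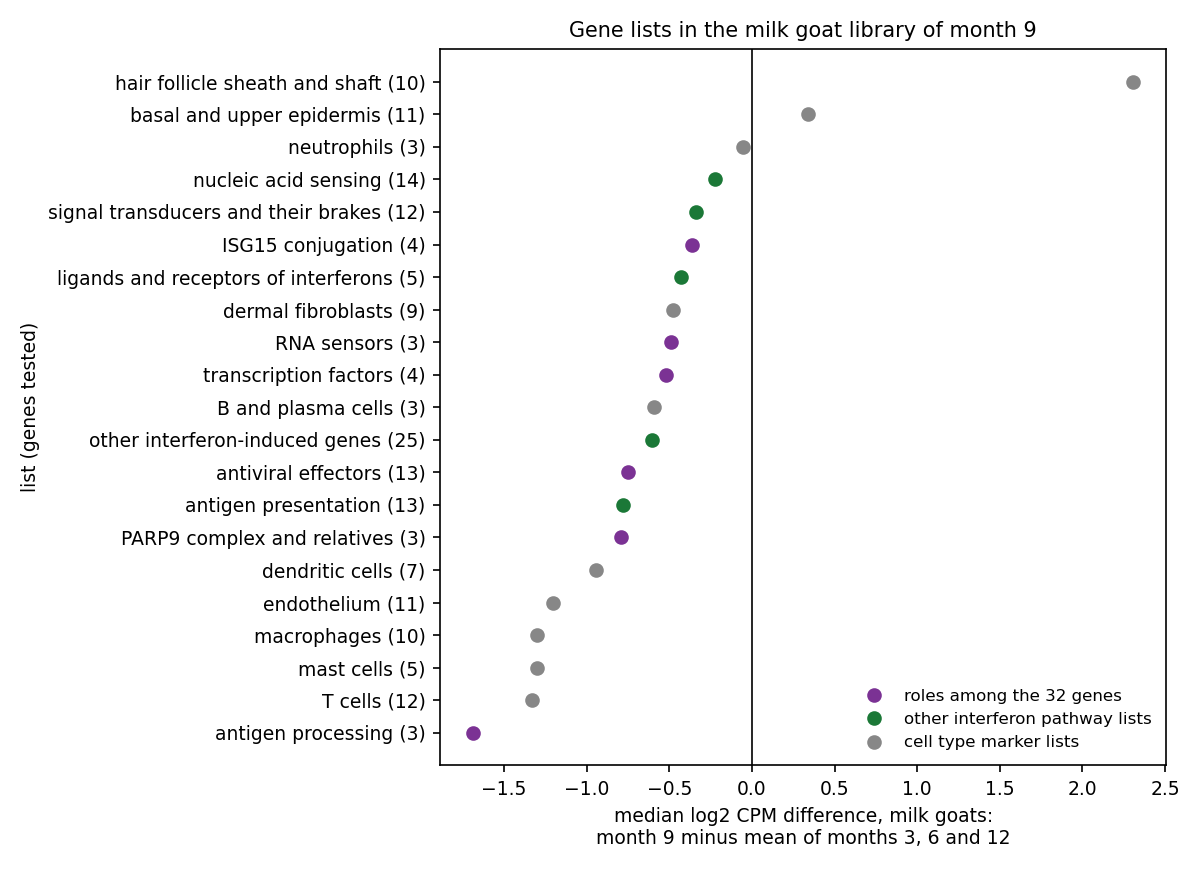
Median log2 CPM difference between month 9 and the mean of months 3, 6 and 12 in milk goats (x axis) for each list with at least 3 genes tested (number in brackets), coloured by kind of list. The antigen processing genes (-1.69) lie below the T cell (-1.33) and macrophage (-1.30) markers, and hair follicle markers lie at 2.31.

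The second count table, with 20780 genes of another gene set, gave the same libraries' reads for more of the list. It held 35 of the 40 symbols in 37 entries, of which 35 were tested among 14994, and USP18, GBP2 and GBP4 were in neither table. The edgeR test called 2 of the 35 lower in cashmere goats, against 4.48% of all its genes, and 0 higher. GBP5, a guanylate-binding protein that attacks membranes around intracellular pathogens, had 1021, 744, 412 and 803 reads in milk goats and 168, 253, 156 and 127 in cashmere goats. In CPM this was 32.6 ± 9.85 against 11.9 ± 3.90 (SD, n = 4 each), with no overlap. The cashmere goat level of GBP5 was 2.73-fold below that of milk goats, with an adjusted p of 0.0303 in edgeR. CXCL9 was 4.97-fold lower (adjusted p = 0.0351 in edgeR), with no month in which cashmere goats were higher. IFIT1 had 10.2, 5.17, 1.77 and 4.17 CPM in milk goats and 4.36, 2.08, 8.87 and 3.96 in cashmere goats, so it too was lowest in milk goats and highest in cashmere goats at month 9. OAS1, which makes the second messenger of RNase L, had 3.19, 3.09, 2.34 and 4.42 CPM in milk goats and 2.24, 2.29, 6.29 and 2.78 in cashmere goats. Of the 30 symbols tested in both tables, 23 had the same sign of breed fold change. Of the 35 entries tested, 29 were lower in milk goats at month 9 than the mean of the other milk goat libraries. The share over all genes of the second table is not given here.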

How the data were processed

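Skin RNA of 8 libraries was compared, 1 for each breed and month. The authors deposited raw read counts per gene in 2 tables of different gene sets, without normalization per their values, and FPKM for the genes of the first. Bowtie2 is named in the submitters' processing notes. Not given in the sources used here are its role and version, the genome build and the way of read counting, and no coordinates are printed. Columns of the count tables matched by breed and month in 8 of 8 cases over 12073 shared symbols. Between libraries, the ratio of read counts to FPKM deviated by at most 0.0163% over 368 genes.

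The tests on counts used edgeR 4.0.16 (R 4.3.3, filterByExpr on breed, TMM, quasi-likelihood F tests, Benjamini-Hochberg at 0.05 over all genes tested). The model of month and breed leaves 3 residual degrees of freedom and the model of a 12-month cycle 2. A full interaction leaves none. Standard errors were derived from each F statistic and fold change. A prior count of 2 went into log2 CPM, on which correlations were computed. Alternatives were DESeq2 1.42.0, limma 3.58.1 on log2 FPKM plus 1 or 0.1 (at least 0.5 FPKM in 4 libraries), RLE factors, library totals, other filters, the second table, no month term and leaving out each library. In the model with month, leaving out 1 library takes its month out of the breed comparison. The 2 such fits of a month therefore nearly repeat each other in the breed fold changes. Leaving out libraries from the month 9 comparison was chosen after seeing the data.

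The members and lists were chosen with earlier results of these data known. Every member is named, with all values for the 12 widest ranges at a mean of at least 1 CPM and for 1 or more per role. Of each pathway list the genes past the threshold are named, otherwise the 2 with the smallest p. A further gene that the rule names is not reported here. The 10 genes most like the members have a mean of at least 5 CPM. Other named genes, among them IFIT1, OAS1 and AIF1, were chosen after their values were seen. A search for motifs in promoters was not run.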

Additional observations from a re-analysis of the deposited data

Results flagged for a closer look

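Within a breed, 4 of 66 groups of 4 libraries held a library far from the other 3, with a gap above the 95% critical value of Dixon's ratio. Chance flags about 1 in 20 groups. STAT2 stood at 47.4 CPM in milk goats at month 6 and at 40.6 to 40.9 in the other 3 milk goat libraries. CXCL11 stood at 0.120 CPM in cashmere goats at month 6, which is 1 read, and at 0 in the other 3 cashmere goat libraries. CMPK2 stood at 2.48 CPM in milk goats at month 9 and at 6.85 to 7.48 in the other milk goat libraries. DTX3L stood at 24.2 CPM in cashmere goats at month 12 and at 33.8 to 36.0 in the other cashmere goat libraries.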

How the results depend on the processing

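With 3 residual degrees of freedom, calls were unstable. Genes called for breed numbered 675, and 888 with no filter in edgeR, 1117 in the second count table and 1712 with DESeq2. In limma they numbered 1494 on log2(FPKM + 1), 1135 on log2(FPKM + 0.1) and 7 on log2(FPKM + 1) without a filter. Without month in the model they numbered 346, and 0 to 869 when 1 library was left out. Genes called for month numbered 0, but 536 with DESeq2 and 0 to 1180 when 1 library was left out. Genes called for breed by season numbered 0, but 17 with library totals and 118 with no filter. The members called for breed numbered 0, but 1 with no filter, DESeq2 and limma on log2(FPKM + 1), and 2 in the second table. When 1 library was left out none was called, 19 to 29 had a negative fold change (29 without either library of month 9) and their median lay between -0.44 and -0.11. In limma on log2(FPKM + 1) and log2(FPKM + 0.1) 16 members were negative, and the median on log2(FPKM + 0.1) was 0.020. At month 9, 5 members were lower in cashmere goats in the second table. In milk goats at month 9, 14 members were 2-fold lower in CPM, 11 to 15 when 1 other milk goat library was left out, and 5 on log2(FPKM + 1). The breed fold change of TMEM173 was 0.18 in the second table. The cause of these changes was not tested. Depth limits CXCL10, CXCL11, XAF1, ISG15 and BST2 most. The season test was not run on FPKM or the second table.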
